A study of Caenorhabditis elegans with 12 samples.

Results

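In Caenorhabditis elegans carrying the genotype label glh1, RNA that sedimented with polysomes was set against total RNA of the same lysates, gene by gene. The comparison used 6 of the series' 12 libraries, chosen by genotype label and fraction, and paired by the culture number in the sample names: 3 polysomal libraries and 3 total RNA libraries of glh1 cultures. Of 46904 genes in the count table, 16526 had enough counts to be tested. The other 6 libraries, 3 polysomal and 3 total from wt cultures, added to the estimate of the spread and served for the comparison of glh1 with wt. No allele is given in the labels for glh1, and no treatment separates the genotypes. In both genotypes, worms synchronised by bleaching grew in liquid S medium with freeze-dried bacteria at 20 °C for about 40 h, until most were young adults. Each pellet was ground in a buffer holding cycloheximide, an elongation inhibitor that holds ribosomes on mRNA. One part of the lysate gave the total RNA and the other was resolved on a 10 to 50% sucrose gradient from which the polysome zone was collected. Each culture was therefore 1 pool of very many animals, and the unit of replication was the culture (n = 3 per genotype).

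A polysome is an mRNA that carries several ribosomes at once, so an mRNA's share in the polysome zone relative to its share in total RNA is a common measure of how far it is engaged in translation. The ribosome number on an mRNA also depends on the length of its coding sequence, and a gradient zone is cut by mass, so length and association are not separate quantities. GLH-1 is a DEAD-box helicase of the Vasa family that sits in the P granules of the germline, cytoplasmic bodies that hold maternal mRNAs, Argonaute proteins and small RNAs. The germline is known for keeping many mRNAs untranslated until oocytes mature or embryos divide.

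The libraries held 34520267 to 49672537 estimated counts each. The rRNA share in glh1 was 3.07, 45.7 and 16.4% in polysomal libraries 1 to 3 and 13.5 to 27.9% in total libraries, so rRNA took unequal room. Polysomal library 3 stood apart: on the first principal component of all 12 libraries (54.7% of the variance) it lay at -136, against -36.5 to -55.7 for the other polysomal libraries and 44.5 to 80.3 for total libraries. The main counts are therefore also given with culture 3 left out. On the second principal component (18.6% of the variance), the libraries of wt cultures 2 and 3 lay at 37.8 to 64.2. Those of wt culture 1 (-22.6 and -28.7) lay within the range of the glh1 libraries (-18.4 to -31.5). The tissue label names whole embryos whereas the growth protocol ends at young adults; the summed level of the 6 vitellogenin genes, which adult hermaphrodites transcribe in the intestine, was 8038 to 8887 CPM (counts per 1000000 of the scaled library) in polysomal and 16914 to 19211 CPM in total libraries. Of 49 genes known for early zygotic transcription, 19 had too few counts to test, and 21 of the 30 tested averaged under 1 CPM in total RNA. In bulk samples such as these, fewer cells of a type and less RNA per cell cannot be told apart.

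The targeted gene was examined first. glh-1 (WBGene00001598, chromosome I, 6854478 to 6857536) stood at 879.7, 906 and 1495 CPM in glh1 polysomal libraries 1 to 3, against 532, 586 and 546 CPM in glh1 total libraries. In wt it stood at 293, 388 and 384 CPM in polysomal and 306, 424 and 305 CPM in total libraries. Its RNA was thus higher in every library labelled glh1 than in every wt library, although the series title speaks of the absence of glh-1. The labels were therefore not checked by a loss of transcript, and glh1 and wt stand throughout for libraries so labelled. Within glh1, all polysomal libraries lay above all total libraries, with a log2 ratio of 0.93 ± 0.23 (SE; adjusted p = 0.0118); without culture 1 it was 0.98, adjusted p = 0.0654, and the call was lost. With the length trend removed it was 1.37.

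None of the 3 related helicase genes was called higher. glh-3 measured 24.0, 18.8 and 22.1 CPM in polysomal and 35.6, 36.4 and 34.4 CPM in total libraries, with every polysomal library below every total one. Its log2 ratio was -0.72 ± 0.17 (SE; adjusted p = 0.00866), a call lost without culture 2 (-0.60, adjusted p = 0.0611) and not made with the length trend removed (-0.33, adjusted p = 0.180). glh-2 had 97.5, 116 and 192 CPM in polysomal and 142, 151 and 128 CPM in total libraries. Library 3 put polysomal glh-2 above the total range while libraries 1 and 2 lay below it, and the log2 ratio of -0.11 ± 0.24 (SE; adjusted p = 0.713) was not called; without culture 3 it was -0.46 (adjusted p = 0.0230), and its sign turned without culture 1 or 2 and under upper-quartile scaling (0.02 to 0.04). glh-4 had 85.0, 96.9 and 129 CPM against 100.4, 106 and 91.2 CPM, with overlapping fractions and a log2 ratio of 0.04 ± 0.19 (SE; adjusted p = 0.868), whose sign also turned with the setting (-0.18 without culture 3, -0.08 with rRNA genes removed).

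Across the transcriptome, polysomal and total RNA of glh1 differed widely. By edgeR's quasi-likelihood test with culture as a block and Benjamini-Hochberg adjustment, 7906 of 16526 genes (47.8%) were called under 0.05. Of these, 4363 (26.4% of the genes tested) were higher in polysomal RNA and 3543 (21.4%) lower. This split moved with scaling and filter: 3651 higher and 4126 lower with rRNA genes removed, 3642 and 3900 with no filter on low counts, and 5268 and 3000 under upper-quartile scaling. A change of at least 2-fold was seen among called genes in 2563 (15.5%) that were higher and 2406 (14.6%) that were lower. All 3 cultures had the same sign in 7888 of the 7906, and the fractions did not overlap in 7826. Regardless of the test, polysomal libraries lay wholly above total libraries in 5672 genes (34.3%) and wholly below in 4837 (29.3%), 10509 (63.6%) in all, and 9172 (55.5%) had an unadjusted p under 0.05. The median log2 ratio over all genes tested was 0.09, with quartiles at -0.66 and 0.76. Without culture 3, 8072 of 16808 genes (48.0%) were called, 4536 (27.0%) higher and 3536 (21.0%) lower. Ratios of single cultures ranked genes alike, with Spearman correlations across 15749 genes of 0.858 for cultures 1 and 2, 0.751 for 1 and 3, and 0.679 for 2 and 3; genes are not independent replicates, and both values of a culture come from 1 lysate.

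Gene length ordered these ratios. Across genes, the log2 ratio in glh1 had a Spearman correlation of -0.411 with exon length, -0.418 with coding length and -0.339 with exon number. By culture, the correlation with exon length was -0.342, -0.254 and -0.453 in glh1. The order was not particular to glh1: in wt this correlation was -0.472, and -0.442, -0.409 and -0.475 by culture. With the length of the 5′ untranslated end the correlation in glh1 was near 0, at -0.0153 in 13278 genes. With that of the 3′ end it was -0.0953 in 14482 genes, but -0.0227, 0.0461 and -0.188 in cultures 1 to 3. It was 0.0707 with the length trend removed, and -0.153 in wt as fitted. Among 1221 genes of 301 to 500 bases the median log2 ratio was 0.85, with 44.3% called higher and 3.19% lower. Among 1278 genes of 3001 to 5000 bases it was -0.55, with 12.4% called higher and 44.4% lower. The 2305 genes of 2001 to 3000 bases lay between these and the middle of the range, at -0.41, and the 385 longest genes, over 5000 bases, at -0.47. In each culture the bin medians declined between 301 to 500 and 3001 to 5000 bases, and culture 3 had the widest range: its medians were 1.56 at 301 to 500 bases and -0.92 at 3001 to 5000 bases, against 0.54 and -0.46 in culture 1 and 0.39 and -0.30 in culture 2.

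**Figure D1:**
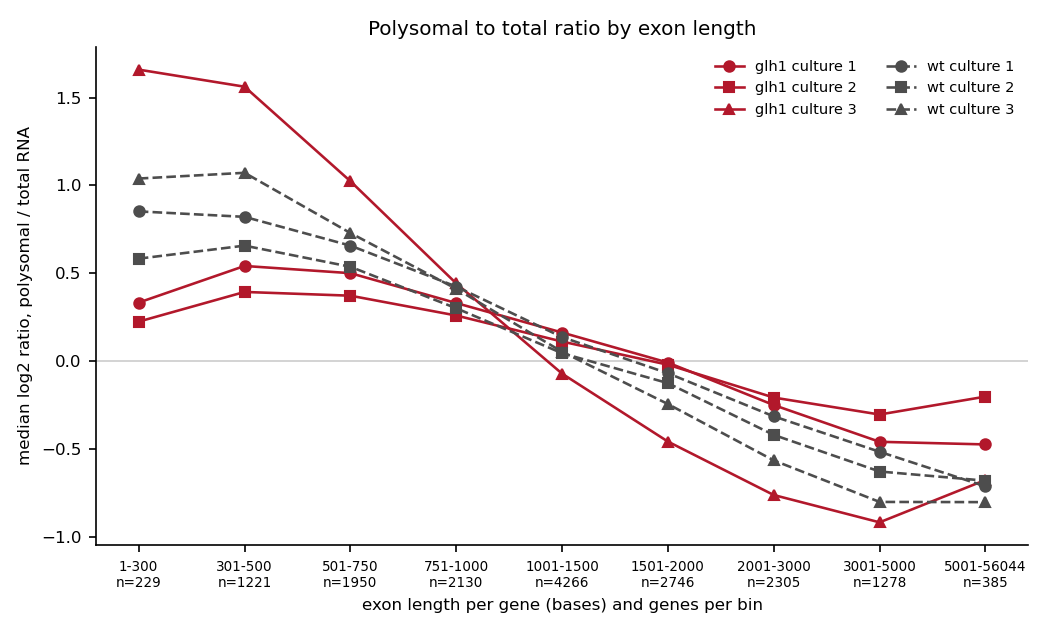
Median log2 ratio of polysomal to total RNA (y axis) in bins of exon length in bases (x axis), 1 line for each culture, glh1 cultures in solid red and wt cultures in dashed grey. Medians decline with length in the 3 glh1 cultures between the bins of 301 to 500 and 3001 to 5000 bases, and glh1 culture 3 spans the widest range, with 1.56 at 301 to 500 bases and -0.92 at 3001 to 5000 bases.

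Because of this order, each gene was also tested after a smooth trend on exon length had been taken out of every library. The correlation with exon length was then -0.0247, and 7650 genes (46.3%) were called, 4048 (24.5%) higher and 3602 (21.8%) lower. Both fits called 6251 genes (37.8%) in the same direction and none in opposite directions. The call was made in 1655 genes (10.0%) only as fitted and in 1399 genes (8.47%) only with the trend removed. Values below are as fitted unless the trend is said to be removed. Since length is also a property of gene families, removing it takes away any part of a family's ratio that goes with its length.

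Among protein-coding genes with a gene-class name, the 12 largest rises in polysomal RNA were led by clx-1 and by collagen genes. clx-1 (WBGene00000551, chromosome IV, 7734648 to 7736324) had 38.1, 32.4 and 93.0 CPM in polysomal and 8.86, 8.98 and 9.31 CPM in total libraries. Its lowest polysomal library lay well above its highest total library, and the log2 ratio was 2.42 ± 0.32 (SE; adjusted p = 0.00130), or 1.98 without culture 3. col-99 (WBGene00000674, chromosome IV, 137974 to 147919), a transmembrane collagen, had 9.90, 9.57 and 10.8 CPM in polysomal and 2.32, 1.98 and 2.57 CPM in total libraries. The 3 polysomal values were close to each other and clear of the total values; the log2 ratio was 2.14 ± 0.18 (SE; adjusted p = 7.64e-04), and 2.60 with the length trend removed. Cuticle collagens among the 12 were col-105, col-174, col-170, col-40 and col-88, with log2 ratios of 2.06 to 2.21. col-40 had 16.1, 38.1 and 91.9 CPM in polysomal and 6.24, 12.5 and 8.82 CPM in total libraries, without overlap but with a wide spread between cultures, and col-88 was at 1.37 without culture 3 and lost its call without polysomal library 3 alone (adjusted p = 0.118), a fit made without the culture block.

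Secreted products filled most of the remaining places. ins-29, an insulin-like peptide gene, had 7.31, 5.95 and 23.6 CPM in polysomal against 2.22, 2.17 and 2.45 CPM in total libraries and a log2 ratio of 2.15 ± 0.37 (SE; adjusted p = 0.00268); with the length trend removed it was 1.32. dod-3, named as a gene downstream of the transcription factor DAF-16, had 596, 643 and 1444 CPM in polysomal and 189.7, 194 and 199 CPM in total libraries. The fractions of dod-3 were far apart in every culture (2.07 ± 0.27). cht-4, of the chitinase family (2.07), nlp-32, a neuropeptide-like gene (2.07), and fipr-10, named as related to fungus-induced peptides (2.10, 1.18 without culture 3, and not called without library 3 alone, adjusted p = 0.0538), completed the 12. Polysomal library 3 held the highest of the polysomal values in all 12 genes.

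Longer mRNAs entered the largest rises once the length trend was removed. ptr-21, a patched-related membrane protein gene, had 80.3, 72.3 and 146 CPM in polysomal and 25.9, 21.7 and 23.7 CPM in total libraries, with a log2 ratio of 2.00 as fitted and 2.48 ± 0.28 (SE; adjusted p = 5.53e-04) with the trend removed. smd-1, which encodes S-adenosylmethionine decarboxylase of polyamine synthesis, had 299, 344 and 643 CPM against 101, 99.7 and 101 CPM, without overlap, and 2.33 with the trend removed. cng-2, a cyclic nucleotide-gated channel gene (2.47), pde-6, a phosphodiesterase gene (2.17), and ltah-1.2, related to leukotriene A4 hydrolase (2.22), were also among these 12, as were txt-8, pcp-4, grl-25 and appg-1 at 2.18 to 2.31.

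Among the 12 largest falls, tcer-1 had the lowest ratio. tcer-1 (WBGene00022855, chromosome II, 7045874 to 7050071), the homologue of a transcription elongation and splicing factor, had 4.33, 5.27 and 2.52 CPM in polysomal and 48.9, 46.1 and 55.9 CPM in total libraries. Its polysomal values were far below all total values, and the log2 ratio was -3.68 ± 0.32 (SE; adjusted p = 7.64e-04); it was -3.32 without culture 3 and -3.19 with the length trend removed. lin-35, the retinoblastoma homologue, had 7.41, 8.20 and 2.44 CPM in polysomal against 39.5, 41.1 and 41.5 CPM in total libraries (-2.89 ± 0.37, adjusted p = 0.00120). rtel-1, a helicase gene of telomere upkeep and recombination, had 3.21, 3.98 and 3.17 CPM in polysomal against 24.7, 27.3 and 29.4 CPM in total libraries (-2.98 ± 0.33, adjusted p = 9.98e-04). Neither gene's fractions came near each other. cdt-1, a replication licensing factor (-2.88), rabx-5, a Rab exchange factor (-3.32), ril-2 (-2.95) and eri-12 (-3.04) were further members, as was snpc-1.1, a small nuclear RNA transcription factor.

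Protein-turnover adaptors took 4 of the 12 places among the falls. fbxa-163 had 1.05, 2.45 and 1.53 CPM in polysomal and 16.0, 16.6 and 15.1 CPM in total libraries (-3.32 ± 0.49, adjusted p = 0.00166). math-3 had 1.44, 1.77 and 0.474 CPM in polysomal and 11.8, 11.4 and 13.3 CPM in total libraries (-3.38 ± 0.37, adjusted p = 9.93e-04). Both had fractions far apart, as did fbxa-215 (-3.07) and math-26 (-3.09). Library 3 held the lowest polysomal value in 11 of the 12 genes, the exception being fbxa-163. The trend on length moved these falls little: tcer-1, fbxa-163, fbxa-215, math-3, math-26, snpc-1.1, rabx-5 and eri-12 stayed among the 12 largest, at -2.69 to -3.35. rpl-41.2, a short ribosomal protein mRNA (-3.11), cdc-25.3, a cell-cycle phosphatase gene (-2.79), tbx-36, a T-box factor gene (-2.77), and dyla-1 (-2.74) joined them.

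**Figure D2:**
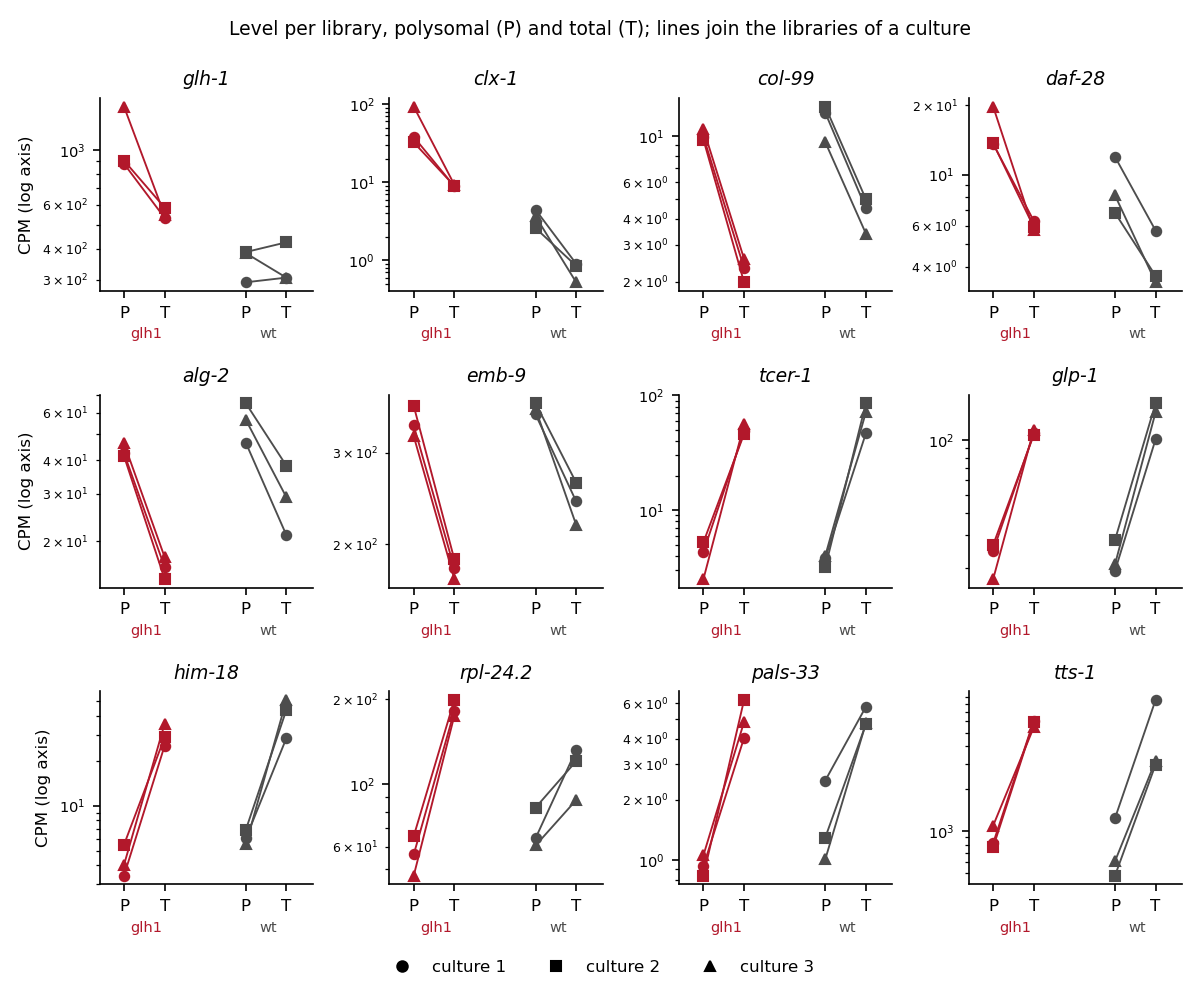
CPM of 12 genes in each library (log axis), glh1 left of wt and polysomal left of total within each genotype, 1 point for each library. In glh1 the polysomal points of clx-1 (32.4 to 93.0 CPM) lie above its total points (8.86 to 9.31 CPM), and those of tcer-1 (2.52 to 5.27 CPM) lie below its total points (46.1 to 55.9 CPM).

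Gene families were then described by counts of called members and by medians, to be read against 26.4% higher, 21.4% lower and a median of 0.09 over all genes. Without culture 1, 2673 of all genes were called higher and 2976 lower, and without culture 2, 3724 and 3187. List counts in those fits are to be read against these lower totals. Of 52 lists, 51 had members with enough counts. Each list was given at most 4 named genes, those of smallest adjusted p; genes of a list's rarer direction were named after their values had been seen.

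**Figure D3:**
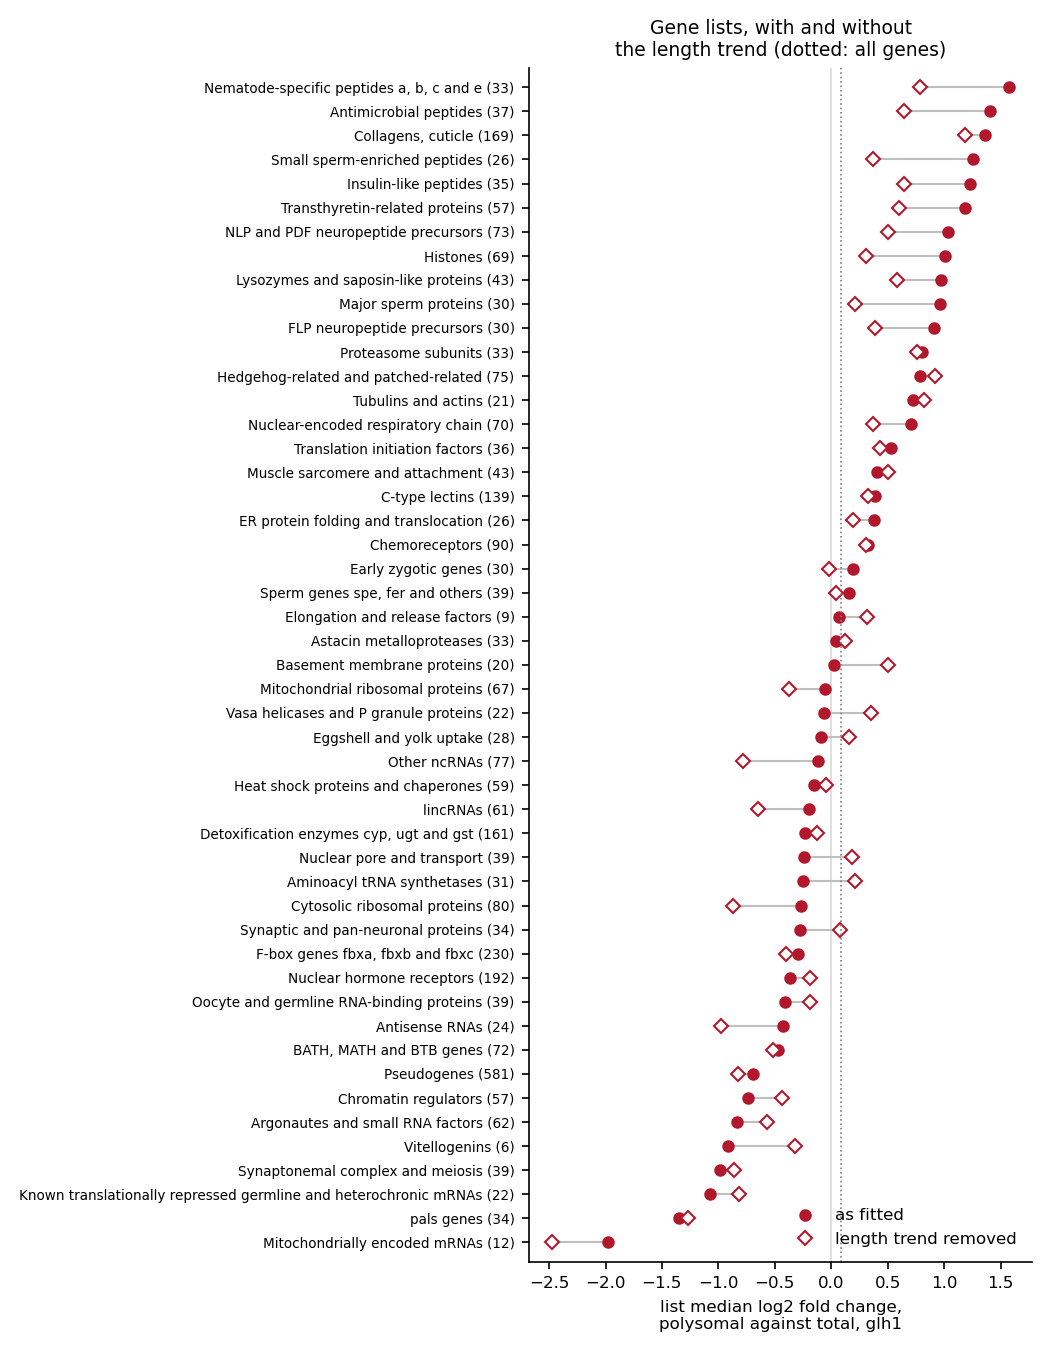
Median log2 ratio of polysomal to total RNA in glh1 for each gene list (x axis), as fitted (filled points) and with the length trend removed (open diamonds), with the median of all genes dotted. Nematode-specific peptides (1.58), antimicrobial peptides (1.41) and collagens (1.36) lie farthest to the right, and mitochondrially encoded mRNAs (-1.98) and pals genes (-1.35) to the left.

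mRNAs of the translation machinery did not move as 1 group. Of the 80 cytosolic ribosomal protein genes in the list, 1 was called higher and 6 lower, with a median of -0.27. The list's name pattern missed rpl-36.A, which was also called lower (-1.19), and rpl-7A, which was not called (-0.41); neither is in these counts. Exons of the listed genes are short (median 532 bases). Cultures differed: medians were -0.69 and -0.77 in cultures 1 and 2 and 0.63 in culture 3. Without culture 1 or without culture 2, 2 were lower and 1 higher. Without culture 3, 50 were lower and 1 higher, with a median of -0.73. With the length trend removed 46 were lower and 1 higher (median -0.87), and with both changes 68 were lower and 1 higher (median -1.05). The summed level of the 80 genes was 57475, 63264 and 149670 CPM in polysomal libraries 1 to 3, against 91998 to 104270 CPM in total libraries. Libraries 1 and 2 thus lay below the total range and library 3 above it.

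Most ribosomal protein genes called as fitted were lower. rpl-24.2 had 56.4, 65.5 and 47.5 CPM in polysomal and 181, 199 and 175 CPM in total libraries, with polysomal values well below the total ones in every culture (-1.72 ± 0.17, adjusted p = 9.16e-04). rpl-41.2 had 175, 184 and 553 CPM in polysomal and 1157, 1351 and 1155 CPM in total libraries; it lay below the total values in all cultures, least so in culture 3 (-2.24 ± 0.42, adjusted p = 0.00377). rpl-42 was the 1 member called higher, with 3.75, 4.94 and 7.11 CPM against 2.11, 2.33 and 2.45 CPM (1.15 ± 0.26, adjusted p = 0.00772). rpl-38, rpl-39 and rps-12 were lower (-1.29, -1.18 and -1.30), as was rpl-25.1 (-0.96), whose call was lost without culture 1 (adjusted p = 0.107) and without culture 2 (adjusted p = 0.0584).

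Initiation factors went the other way. Of 36, 17 were higher and 5 lower (median 0.53), against 10 higher and 4 lower without culture 1 and 17 higher and 8 lower without culture 3 (median 0.31). eif-4A3, a helicase of the exon junction complex, had 192, 197 and 371 CPM in polysomal and 93.9, 88.4 and 84.0 CPM in total libraries, without overlap (1.44 ± 0.23, adjusted p = 0.00210). eif-3.K, a subunit of the factor that recruits the small ribosomal subunit, was also higher (0.95). The 5 lower members were eif-2Bdelta (-1.13) and eif-2Bepsilon (-1.60), both subunits of the exchange factor for the initiator GTPase, eif-2D (-1.17), ifg-1, the scaffold eIF4G (-0.60), and eif-2A (-0.52), whose call was lost without culture 1 (adjusted p = 0.0834), culture 2 (0.151) or library 3 alone (0.0560). eif-2Bepsilon had 6.39, 5.51 and 4.60 CPM in polysomal and 16.6, 17.1 and 16.0 CPM in total libraries, a clear gap in each culture.

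Of 9 elongation and release factor genes, efk-1, the kinase that inhibits elongation factor eEF2, was lower (67.5, 80.3 and 34.3 CPM in polysomal, 171, 171 and 174 CPM in total libraries; -1.59 ± 0.24, adjusted p = 0.00172). erfa-1, the release factor eRF1, was higher (0.51), a call lost without culture 1 (adjusted p = 0.123), culture 2 (0.0788) or library 3 alone (0.0514). The list median of 0.07 changed sign when any culture was left out (-0.13, -0.11 and -0.23 without cultures 1, 2 and 3). Aminoacyl tRNA synthetase genes, which are long, had 4 higher and 12 lower of 31 (median -0.25), 4 and 13 without culture 3 (median -0.07), and 12 and 11 with the length trend removed (median 0.21). lars-1, for leucine, had 77.6, 89.0 and 113 CPM in polysomal and 259, 253 and 256 CPM in total libraries (-1.48 ± 0.20, adjusted p = 0.00131); sars-1, for serine, was at -1.42. The 4 higher members were nars-1 (0.97, 0.59 without culture 3), dars-1 (0.65), pars-2 (0.62) and sars-2 (0.55), of which the last 3 lost their call without culture 1 (adjusted p = 0.0690 to 0.0972) and pars-2 also without culture 2 (0.0646). Without culture 3, pars-2 (adjusted p = 0.0636) and sars-2 (0.0757) lost theirs and dars-1 was at 0.42, and without library 3 alone all 3 did (0.0594 to 0.157). Mitochondrial ribosomal protein genes were split, with 20 higher and 15 lower of 67 (median -0.05, 0.10 under upper-quartile scaling). These shares, 29.9% and 22.4%, were near those of all genes. The counts were 8 higher and 13 lower without culture 1 and 16 and 15 without culture 3 (median 0.00). With the trend removed 9 were higher and 28 lower (median -0.37).

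Proteasome mRNAs were high in polysomal RNA. Of 33 subunit genes, 22 were higher and 1 lower, with a median of 0.80 that was nearly the same with the length trend removed (0.76, 22 higher and 1 lower); without culture 3, 19 were higher and 2 lower (median 0.55). pbs-1, a subunit of the catalytic core, had 271, 301 and 639 CPM in polysomal and 124, 136 and 123 CPM in total libraries. All polysomal values lay well above the total values, with library 3 highest (1.55 ± 0.27, adjusted p = 0.00278). rpn-13, a ubiquitin receptor of the regulatory particle, had 169, 165 and 286 CPM against 87.1, 90.4 and 91.3 CPM (1.15 ± 0.19, adjusted p = 0.00238). rpn-8, of the same particle, was the lower member, at 57.4, 59.2 and 33.1 CPM in polysomal and 113, 119 and 130.0 CPM in total libraries (-1.31 ± 0.24, adjusted p = 0.00346).

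Nuclear-encoded respiratory chain genes were also shifted upward, in part with their length. As fitted, 32 of 70 were higher and 2 lower (median 0.70), 20 and 1 without culture 1, and 26 and 3 without culture 3 (median 0.31); with the trend removed 20 were higher and 4 lower (median 0.37), and with culture 3 also left out 14 were higher and 5 lower (median 0.06). Succinate dehydrogenase genes were at the top. sdha-1, the flavoprotein subunit, had 200.2, 196 and 223 CPM in polysomal and 78.8, 74.9 and 84.2 CPM in total libraries, close between cultures in both fractions (1.38 ± 0.14, adjusted p = 9.66e-04, and 1.75 with the trend removed). mev-1, the cytochrome b subunit, was at 1.47, sdhd-1 at 1.61, and gas-1, of complex I, at 1.26. The 2 lower members were cox-16, an assembly factor (-1.06), and cyc-2.1, a cytochrome c (-1.07), whose call was lost without culture 1 (adjusted p = 0.244) or culture 2 (0.185).

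The 12 mRNAs encoded in mitochondrial DNA, which are translated by mitochondrial ribosomes, were all lower in polysomal RNA, in both fits and without culture 3 (median -1.98, -2.47 with the length trend removed, -1.93 without culture 3). Their summed level was 1947, 1816 and 1020 CPM in polysomal libraries 1 to 3, against 4414 to 5285 CPM in total libraries. ND1, a complex I subunit (MtDNA, 1763 to 2635), had 53.9, 45.6 and 40.5 CPM in polysomal and 321, 303 and 264 CPM in total libraries (-2.67 ± 0.31, adjusted p = 0.00105). The lowest ratio among them was at WBGene00010961, with 12.4, 11.2 and 2.70 CPM against 130.4, 122 and 115 CPM (-4.02 ± 0.46, adjusted p = 0.00104).

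Genes of the secretory entry route were mixed. Of 26 endoplasmic reticulum genes, 12 were higher and 5 lower (median 0.38), against 7 and 5 without culture 1, 12 and 5 without culture 3 (median 0.27) and 8 and 3 with the trend removed (median 0.19). sec-61.A and sec-61.B, subunits of the translocation channel, were higher; sec-61.A had 578, 499 and 649.6 CPM in polysomal and 266, 248 and 265 CPM in total libraries (1.14 ± 0.20, adjusted p = 0.00283), and sec-61.B was at 1.59. Lower members included cnx-1, calnexin (-0.90), ribo-1 (-1.08), dnj-20 (-0.72) and ero-1 (-0.42). dnj-20 lost its call without culture 3 (-0.37, adjusted p = 0.0652) or library 3 alone (0.0892), and ero-1 without culture 1 (0.0573), culture 2 (0.178) or library 3 alone (0.0822). Among 59 heat shock and chaperone genes, 15 were higher and 22 lower, with a median of -0.15 that became 0.03 without culture 3 (17 higher and 22 lower) and 0.00 under upper-quartile scaling. hsp-12.2, a small heat shock protein gene, had 131, 132 and 153 CPM in polysomal against 51.1, 52.0 and 53.7 CPM in total libraries, with little spread (1.40 ± 0.15, adjusted p = 9.66e-04), and dnj-8, a J-domain protein gene, was at -1.76.

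Cuticle collagens formed the largest family with a marked shift. Of 175 genes, 169 were tested, and 125 were higher and 1 lower (median 1.36). The shift was nearly as wide with the trend removed, where 118 were higher and 1 lower (median 1.18). Cultures 1 and 2 had medians of 0.91 and 0.85 and culture 3 one of 2.22; without culture 3, 115 were higher and 1 lower (median 0.89). The summed level was 11049, 12781 and 31517 CPM in polysomal libraries 1 to 3, against 9658 to 10861 CPM in total libraries, so polysomal library 3 stood far above the others. col-174 had 3.33, 4.13 and 9.52 CPM in polysomal and 0.938, 1.34 and 1.13 CPM in total libraries, without overlap (2.18 ± 0.31, adjusted p = 0.00152). bli-1, a collagen of the struts of the adult cuticle, was the lower member (0.781, 0.987 and 0.292 CPM in polysomal, 2.00, 3.35 and 3.47 CPM in total libraries; -2.08 ± 0.38, adjusted p = 0.00351).

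Hedgehog-related and transthyretin-related families were also mostly higher as fitted. Of 75 tested genes of the hedgehog-related and patched-related families, 40 were higher and 2 lower (median 0.79, 0.91 with the length trend removed and 0.75 without culture 3), against 26 and 1 without culture 1 and 38 and 3 without culture 3. wrt-10, a hedgehog-related gene of the warthog class, had 16.4, 15.9 and 20.1 CPM in polysomal and 5.77, 6.70 and 7.57 CPM in total libraries, with tight and separate fractions (1.39 ± 0.17, adjusted p = 0.00117). The lower members were ptr-2 (-0.87) and qua-1 (-0.60), whose call was lost without culture 1 (adjusted p = 0.110) or culture 2 (0.185). Transthyretin-related genes, which encode small secreted proteins, had 46 higher and 1 lower of 57 tested (median 1.18), and 42 and 1 without culture 3 (median 1.01). ttr-48 had 282, 262 and 297 CPM in polysomal and 107, 107 and 105 CPM in total libraries (1.39 ± 0.15, adjusted p = 9.93e-04), and ttr-14 was the lower one (-0.86), a call lost without culture 2 (adjusted p = 0.0859) or library 3 alone (0.199). With the trend removed the family had 31 higher and 2 lower (median 0.60).

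Basement membrane genes are among the longest, with a median of 4915 exon bases in the 20 genes, and their counts differed between the fits. As fitted, 6 were higher and 4 lower, with a median of 0.03 that turned negative without culture 1 (-0.05) or culture 2 (-0.03). Without culture 1 the counts were 3 and 1, and without culture 3 they were 6 and 1 (median 0.13). The 4 lower ones were the laminin gene lam-2 (-1.16, -0.65 without culture 3), lam-3 (-0.62), him-4, hemicentin (-0.52), and spon-1, spondin (-0.51). Leaving out any 1 culture ended the calls of lam-3, him-4 and spon-1 (adjusted p = 0.0551 to 0.112), and leaving out library 3 alone those of lam-3 (0.109) and spon-1 (0.0819). With the trend removed, 11 were higher and none lower by edgeR (median 0.50), and the same counts held without culture 3. Of all genes over 5000 bases, 33.5% were higher and 16.4% lower with the trend removed (median 0.15). Of those of 3001 to 5000 bases, 28.3% were higher and 29.3% lower (median -0.04). emb-9 and let-2 encode the chains of basement membrane collagen. emb-9 had 338, 368 and 322 CPM in polysomal and 180.1, 187 and 172 CPM in total libraries, close between cultures (0.93 ± 0.16, adjusted p = 0.00297; 1.55 with the trend removed). let-2 had 524, 525 and 356 CPM against 219, 209 and 211 CPM (1.11 and 1.74). ost-1, the matrix protein SPARC, was at 1.08. Astacin metalloproteases, some of which process collagens, had 7 higher and 2 lower of 33 tested (median 0.04, -0.05 without culture 2), shares of 21.2% and 6.06%, and 6 and 1 without culture 3 (median 0.14). nas-30 was among the higher ones (1.08) and nas-11 (-1.83) and nas-29 (-1.16) were the lower ones; nas-29 lost its call without culture 1 (adjusted p = 0.105), culture 3 (-0.77, adjusted p = 0.143) or library 3 alone (0.0746).

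Genes for insulin-like peptides and for FLP, NLP and PDF precursors were mostly higher in polysomal RNA as fitted. Of 35 tested insulin-like peptide genes, 22 were higher and none lower (median 1.23), 18 and none without culture 3 (median 0.91), and 14 and 2 with the length trend removed (median 0.64). daf-28 and ins-4 encode ligands that act on the insulin receptor DAF-2. daf-28 had 13.6, 13.7 and 19.7 CPM in polysomal and 6.31, 5.92 and 5.75 CPM in total libraries (1.36 ± 0.20, adjusted p = 0.00173). ins-4 had 10.6, 10.1 and 13.1 CPM in polysomal and 3.81, 4.07 and 4.36 CPM in total libraries (1.46 ± 0.19, adjusted p = 0.00119). Fractions did not overlap in either gene. FLP precursors, which yield FMRFamide-like peptides, had 22 higher and none lower of 30 tested (median 0.91; 21 and none without culture 3, median 0.65), with flp-13 at 28.7, 26.0 and 34.9 CPM in polysomal and 13.6, 11.3 and 11.0 CPM in total libraries (1.31 ± 0.18, adjusted p = 0.00143). NLP and PDF precursors had 54 higher and 1 lower of 73 (median 1.03), and the same counts without culture 3 (median 0.87). nlp-49 had 262, 213 and 192 CPM in polysomal and 88.2, 81.1 and 95.8 CPM in total libraries, and was highest in library 1 (1.32 ± 0.18, adjusted p = 0.00131); the lower one was nlp-17 (-0.99), a call lost without culture 1 (adjusted p = 0.148) or culture 2 (0.0989). With the trend removed, 13 FLP genes were higher and 2 lower (median 0.39), and 36 NLP and PDF genes were higher and 4 lower (median 0.50).

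Genes for synaptic and other neuronal proteins, which are longer, had no such shift. Of 34 synaptic and pan-neuronal genes, 6 were higher and 9 lower (median -0.28), against 8 higher and 3 lower with the length trend removed (median 0.08) and 10 higher and 7 lower without culture 3 (median -0.02). cpx-1, complexin, had 45.6, 45.2 and 54.7 CPM in polysomal and 21.8, 21.8 and 19.4 CPM in total libraries, without overlap (1.20 ± 0.17, adjusted p = 0.00147), and snn-1, synapsin, was at 1.23. tom-1, tomosyn (-1.06), and rpm-1, a presynaptic ubiquitin ligase (-1.17; adjusted p = 0.0522 without library 3 alone), were lower. Of 21 tubulin and actin genes, 12 were higher and 1 lower (median 0.72, 0.83 with the trend removed), and the same counts held without culture 3 (median 0.65). mec-7, mec-12 and tbb-4, neuronal tubulin genes, were at 1.59, 1.35 and 1.32. act-5, the actin of intestinal microvilli, had 270.1, 271 and 445 CPM in polysomal and 94.2, 91.0 and 98.0 CPM in total libraries, all polysomal values above all total ones (1.76 ± 0.21, adjusted p = 0.00105, but 0.191 without library 3 alone). The lower one was tbg-1, gamma-tubulin (-0.60; adjusted p = 0.0773 without culture 2).

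Muscle genes divided within the list. Of 43, 15 were higher and 8 lower (median 0.41), 19 and 8 without culture 3 (median 0.21), and 22 were higher and 5 lower with the trend removed (median 0.50). The very long ttn-1, a titin-like protein gene, had 46.8, 50.7 and 41.1 CPM in polysomal and 147, 179 and 162 CPM in total libraries (-1.81 ± 0.22, adjusted p = 0.00113; -1.21 with the trend removed). The myosin heavy chain genes myo-3 (-1.47) and myo-5 (-1.67) were lower too. pat-4, the integrin-linked kinase, had 45.8, 40.8 and 70.7 CPM in polysomal and 17.5, 17.1 and 18.2 CPM in total libraries, apart in every culture (1.53 ± 0.19, adjusted p = 0.00119).

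Small peptides of defence and of nematode-specific families were mostly higher as fitted, and fewer than 1 in 2 with the length trend removed. Of 37 tested antimicrobial peptide genes, 29 were higher and none lower (median 1.41), 21 and 1 without culture 3 (median 1.00), and 17 and 1 with the trend removed (median 0.65). cnc-10, of the caenacin class, had 21.5, 19.0 and 28.6 CPM in polysomal and 8.61, 7.85 and 8.86 CPM in total libraries (1.43 ± 0.18, adjusted p = 0.00117). Nematode-specific peptide genes had 25 higher and none lower of 33 tested (median 1.58), 23 and none without culture 3 (median 1.13), and 15 and none with the trend removed (median 0.78). nspc-4 had 7.51, 5.95 and 14.1 CPM in polysomal and 2.81, 2.47 and 3.32 CPM in total libraries (1.59 ± 0.24, adjusted p = 0.00170, but 0.127 without library 3 alone). Lysozyme and saposin-like genes had 23 higher and 1 lower of 43 (median 0.97), 21 and 3 without culture 3 (median 0.75), and 18 and 4 with the trend removed (median 0.59), with spp-2 at 243, 218 and 476 CPM in polysomal and 83.9, 91.3 and 86.6 CPM in total libraries (1.75 ± 0.25, adjusted p = 0.00152) and spp-17 the lower one (-1.47; adjusted p = 0.170 without library 3 alone). In cnc-10, nspc-4 and spp-2 the fractions did not overlap and polysomal library 3 was highest. C-type lectins, of which 139 of 240 were tested, had 45 higher and 9 lower (median 0.39), shares of 32.4% and 6.47%, or 26 and 6 without culture 1 and 43 and 9 without culture 3 (median 0.38). clec-266 was at 1.57 ± 0.18.

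Among families of intracellular regulators, pals genes had the clearest downward count. None of 34 tested pals genes, a family induced by intracellular pathogens, was higher by edgeR, and 22 were lower (median -1.35, -1.27 with the trend removed and 26 lower, -1.19 without culture 3 and 18 lower). pals-33 had 0.934, 0.838 and 1.06 CPM in polysomal and 4.05, 6.25 and 4.86 CPM in total libraries (-2.39 ± 0.29, adjusted p = 0.00108). pals-14 had 1.38, 1.71 and 1.90 CPM in polysomal and 5.75, 6.22 and 6.72 CPM in total libraries (-1.92 ± 0.21, adjusted p = 9.93e-04). Both were at a low level, and their fractions were well apart. F-box genes of the fbxa, fbxb and fbxc classes had 9 higher and 33 lower of 230 tested (median -0.29), or 5 and 35 without culture 3 (median -0.26), and 92 of 322 had too few counts. Their share called lower, 14.3%, was below the 21.4% of all genes, and so was their share called higher, 3.91%. BATH, MATH and BTB genes had 5 higher and 21 lower of 72 (median -0.48, -0.52 with the trend removed), and the same counts without culture 3 (median -0.34). The 5 higher ones were btb-14 (1.06), bath-47 (0.97), btb-9 (0.88), bath-40 (0.71) and btb-11 (0.89), and btb-11 lost its call whichever culture was left out (adjusted p = 0.0607 to 0.0893).

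Nuclear hormone receptor genes had 20 higher and 42 lower of 192 tested (median -0.37), but 32 higher and 31 lower without culture 3 (median -0.13). Their share called lower, 21.9%, was near the 21.4% of all genes, and their share called higher, 10.4%, was below the 26.4%. nhr-119 had 20.5, 21.5 and 12.3 CPM in polysomal and 7.65, 6.81 and 7.50 CPM in total libraries, with library 3 the lowest polysomal value (1.27 ± 0.22, adjusted p = 0.00281). Detoxification enzymes of the cyp, ugt and gst classes had 26 higher and 24 lower of 161 (median -0.24), and 27 and 21 without culture 3 (median 0.02). Their shares, 16.1% higher and 14.9% lower, were both below those of all genes. ugt-23 had 18.3, 19.2 and 13.4 CPM in polysomal and 79.1, 84.7 and 78.4 CPM in total libraries, a wide gap in each culture (-2.27 ± 0.20, adjusted p = 7.64e-04). The other members of smallest adjusted p went the other way. Over the alternative settings, ugt-52 lay at 0.81 to 1.64, gst-36 at 0.72 to 1.53 and cyp-37A1 at 0.60 to 1.27. Each lost its call in 1 setting. Chemoreceptor genes were mostly too low to test, with 90 of 1309 tested. Of these 11 were higher (4 without culture 1, 8 without culture 3) and 1, srj-14, lower (-1.60).

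Germline and developmental timing mRNAs that are known to be held back from translation were low in polysomal RNA. Of 22 such genes, 14 were lower and 1, apx-1, higher (0.54; adjusted p = 0.152 without culture 1 and 0.0877 without culture 2). The median was -1.07, and -0.58 without culture 3 with the same counts. glp-1, the germline Notch receptor, had 24.7, 26.6 and 17.3 CPM in polysomal and 109, 107 and 114 CPM in total libraries. The polysomal values were far below the total ones in every culture (-2.28 ± 0.19, adjusted p = 7.64e-04; -1.72 with the length trend removed). spn-4, an RNA-binding protein gene of the early embryo, had 78.1, 81.4 and 44.4 CPM in polysomal and 282, 289.8 and 286 CPM in total libraries, with library 3 lowest (-2.12 ± 0.22, adjusted p = 9.66e-04). cep-1, the p53 homologue (-1.87), and mes-3, a Polycomb-type repressor subunit (-2.27), were lower as well. The list holds textbook examples of repression in the germline and of developmental timing genes.

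Among 39 oocyte and germline RNA-binding protein genes, 5 were higher and 15 lower (median -0.41), and 7 and 15 without culture 3 (median -0.25). gld-3, a KH-domain cofactor of cytoplasmic polyadenylation, had 26.7, 22.8 and 20.8 CPM in polysomal and 70.2, 65.3 and 79.7 CPM in total libraries, apart in each culture (-1.61 ± 0.16, adjusted p = 9.16e-04). mog-1, a helicase of the spliceosome, was at -1.44 and puf-12 at -1.17. The 5 higher members were fog-3 (1.32), which acts in the sperm fate, fbf-2 (0.79) and puf-3 (0.50), both of the Pumilio family, sygl-1 (0.71), a stem cell factor, and rnp-8 (0.41). puf-3 and rnp-8 lost their calls without culture 1 (adjusted p = 0.230 and 0.336), culture 2 (0.0955 and 0.146) or library 3 alone (0.249 and 0.137), and sygl-1 without library 3 alone (0.112).

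Genes of small RNA pathways were mostly lower. Of 62 tested Argonautes and small RNA factors, 4 were higher and 40 lower (median -0.84), and 7 and 41 without culture 3 (median -0.79); with the length trend removed 11 were higher and 30 lower (median -0.57). rde-8, a nuclease of RNA interference, had 9.92, 11.4 and 8.65 CPM in polysomal and 29.7, 34.2 and 32.5 CPM in total libraries, with separate fractions (-1.69 ± 0.17, adjusted p = 9.16e-04). rde-2 (-2.39) and the nuclear RNA interference factor nrde-4 (-1.94) were lower still. alg-2, an Argonaute of the microRNA pathway, went the other way, with 42.5, 41.4 and 46.2 CPM in polysomal and 16.0, 14.4 and 17.4 CPM in total libraries (1.44 ± 0.16, adjusted p = 9.85e-04; 2.00 with the trend removed). The other higher members were pid-3 (0.99), of the piRNA pathway (0.59 without culture 3), and the germline Argonautes wago-4 (0.74) and csr-1 (0.47). wago-4 lost its call without culture 1 (adjusted p = 0.0649), and csr-1 without culture 1 (0.232), culture 2 (0.0628) or library 3 alone (0.0676).

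P granule genes were split between directions. Of 22, 3 were higher and 8 lower (median -0.06, 0.09 under upper-quartile scaling), 4 and 9 without culture 3 (median -0.08), and 8 and 7 with the trend removed (median 0.35). znfx-1, a helicase of granules next to P granules, had 7.73, 9.31 and 2.99 CPM in polysomal and 37.0, 33.6 and 40.7 CPM in total libraries, far apart in every culture (-2.59 ± 0.34, adjusted p = 0.00126). meg-3, a scaffold of embryonic P granules, had 7.44, 7.69 and 7.92 CPM in polysomal and 17.1, 18.1 and 18.8 CPM in total libraries (-1.23 ± 0.18, adjusted p = 0.00153). pgl-2 (-1.02) and ddx-19 (-1.20) were lower, whereas pgl-3 (0.82), the related granule scaffold, and car-1 (1.23), an RNA-binding granule protein, were higher along with glh-1. pgl-3 was at 0.50 without culture 3, and its call was lost without culture 1 (adjusted p = 0.0672) or library 3 alone (0.125); that of glh-1 was lost without culture 1 (0.0654).

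Meiosis genes had one of the strongest downward counts. Of 39, 27 were lower and 2 higher (median -0.99), and 28 were lower and 2 higher with the length trend removed (median -0.86); without culture 3 the median was -0.81 with 27 lower and 1 higher. him-18, a scaffold for nucleases that resolve crossovers, had 3.40, 5.48 and 4.01 CPM in polysomal and 25.3, 28.7 and 35.4 CPM in total libraries (-2.81 ± 0.25, adjusted p = 8.18e-04). him-1, a cohesin subunit, had 20.1, 20.0 and 18.5 CPM in polysomal and 70.9, 69.0 and 92.3 CPM in total libraries (-1.97 ± 0.22, adjusted p = 9.93e-04). In both genes the highest polysomal value was far below the lowest total one. mre-11, a repair nuclease (-1.70), and pch-2, a checkpoint ATPase (-1.39), were lower as well. The 2 higher members were htp-2 (0.75) and htp-1 (0.62), paralogous proteins of the chromosome axis. htp-1 lost its call without culture 1 (adjusted p = 0.110), culture 3 (0.32, adjusted p = 0.0712) or library 3 alone (0.0975).

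Chromatin regulators had 4 higher and 29 lower of 57 tested (median -0.74, -0.44 with the trend removed), and 4 and 27 without culture 3 (median -0.46). met-1, a histone methyltransferase, had 28.9, 31.1 and 18.8 CPM in polysomal and 85.3, 87.6 and 91.3 CPM in total libraries, clearly apart (-1.77 ± 0.19, adjusted p = 9.85e-04). set-3 (-2.40) and mes-4 (-1.83), also of the methyltransferase class, were lower. The higher members were hpl-1 (0.89), a heterochromatin protein, jmjd-2 (0.73), a demethylase, set-26 (0.65) and set-11 (0.90). hpl-1 and set-11 lost their calls without culture 1 (adjusted p = 0.0807 and 0.149), culture 3 (hpl-1 at 0.46, adjusted p = 0.0609 and 0.0815) or library 3 alone (0.0587 and 0.0665), and set-26 without culture 2 (0.0876). Of 39 nuclear pore and transport genes, 6 were higher and 13 lower (median -0.24), against 2 and 8 without culture 1, 3 and 8 without culture 2, 9 and 14 without culture 3 (median -0.10), and 12 and 6 with the trend removed (median 0.18). ima-1, a germline importin, had 7.88, 9.19 and 4.63 CPM in polysomal and 42.2, 43.3 and 44.5 CPM in total libraries (-2.63 ± 0.32, adjusted p = 0.00110).

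**Figure D4:**
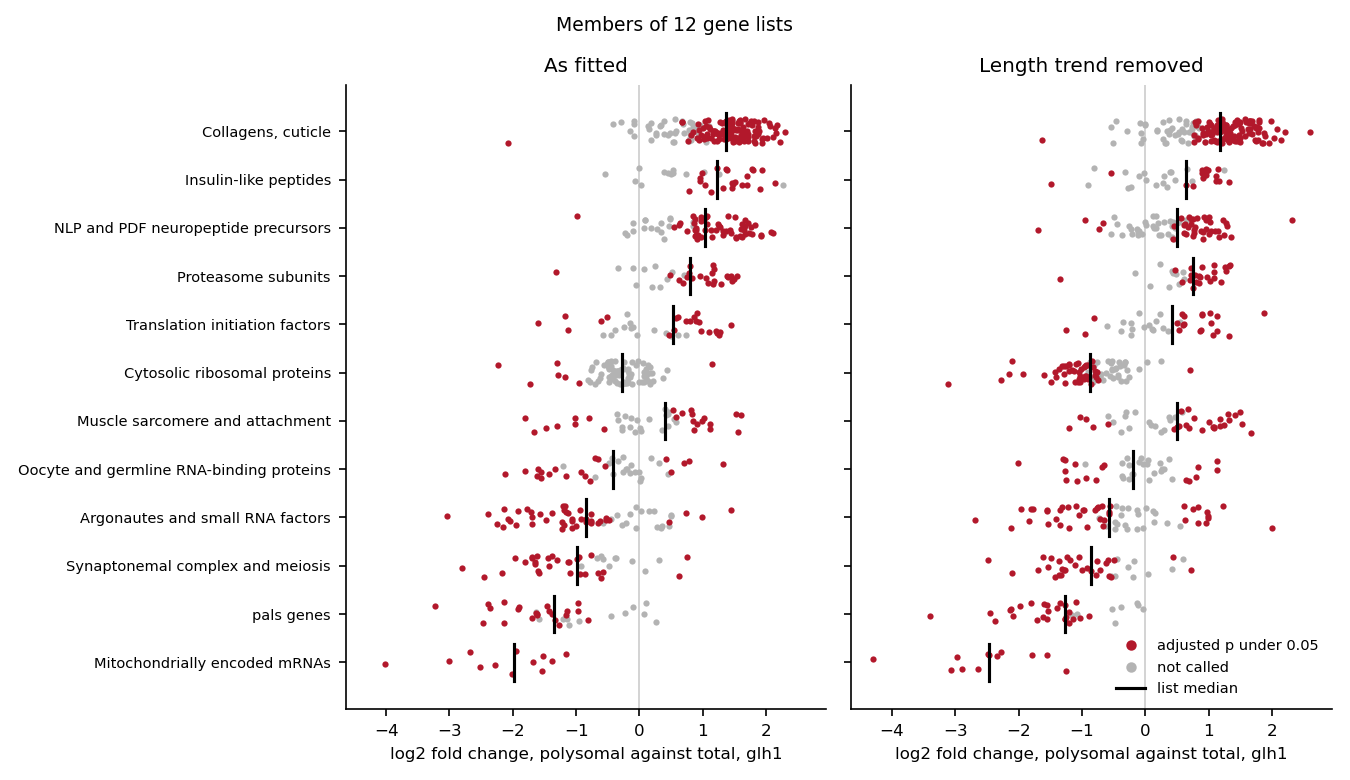
Log2 ratio of polysomal to total RNA in glh1 (x axis) of each tested member of 12 gene lists, as fitted and with the length trend removed. Collagens have 125 of 169 members called higher, meiosis genes 27 of 39 and pals genes 22 of 34 called lower, while ribosomal protein genes form a narrow group with a median of -0.27 as fitted and -0.87 with the trend removed.

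Histone genes were higher, and short. Of 81, 69 were tested, with 32 higher and 2 lower (median 1.01), or 26 and 2 without culture 3 (median 0.74); with the length trend removed 16 were higher and 4 lower (median 0.31). Cultures gave medians of 0.32, 0.97 and 1.51. Many copies are near-identical, and 19 of the 69 shared exactly the same counts with a second gene, so values of single core histone genes are uncertain, and many of these mRNAs lack the poly(A) tails on which the libraries were selected. The linker histone his-24, which differs from the other copies, had 151, 166 and 246 CPM in polysomal and 49.0, 53.2 and 56.6 CPM in total libraries, far apart in every culture (1.79 ± 0.18, adjusted p = 9.16e-04). his-72, of the replication-independent H3 class, had 343, 354 and 607 CPM in polysomal and 148, 164 and 158 CPM in total libraries (1.42 ± 0.22, adjusted p = 0.00193). The lower members were his-59 (-0.54) and hil-5 (-0.45). Both lost their calls without culture 1 (adjusted p = 0.187 and 0.104), culture 2 (0.103 and 0.126) or library 3 alone (0.159 and 0.185), and hil-5 without culture 3 (0.0650).

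Sperm mRNAs differed by kind. Of 30 tested genes for major sperm protein (MSP), the cytoskeletal protein that drives sperm crawling, 17 were higher and none lower (median 0.96). Culture 3 stood above the others, with culture medians of 0.46, 0.44 and 2.18. Fewer were called with the trend removed, where 3 were higher and 2 lower with the trend removed (median 0.21). Without culture 1, 11 were higher and none lower. Without culture 3, 14 were higher and 2 lower (median 0.42), and with both changes 3 and 5 (median 0.02). The summed level was 1425, 1447 and 4944 CPM in polysomal libraries 1 to 3, against 1088 to 1179 CPM in total libraries. All polysomal sums lay above the total sums, library 3 by far the most. msp-65 had 26.3, 21.8 and 86.5 CPM in polysomal and 8.16, 9.73 and 13.5 CPM in total libraries (1.84 ± 0.27, adjusted p = 0.00164); reads of these near-identical genes can be divided among copies in ways not tested here.

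Small sperm-enriched peptide genes had 22 higher and 1 lower of 26 tested (median 1.26, 0.68 without culture 3 with 18 higher and 1 lower, and 0.37 with the trend removed). ssp-35 had 22.5, 21.3 and 44.0 CPM in polysomal and 9.48, 10.4 and 11.1 CPM in total libraries, without overlap (1.42 ± 0.23, adjusted p = 0.00232). sss-1 was the lower one, with 14.7, 12.8 and 25.8 CPM in polysomal and 39.0, 41.4 and 42.2 CPM in total libraries (-1.27 ± 0.21, adjusted p = 0.00245). Of 39 tested sperm genes of the spe and fer classes and others, 6 were higher and 8 lower (median 0.16), and 7 and 9 without culture 3 (median 0.01). spe-48 had 9.65, 10.2 and 7.95 CPM in polysomal and 23.3, 23.0 and 26.2 CPM in total libraries (-1.39 ± 0.21, adjusted p = 0.00195); spe-39 was at -1.71 and spe-47 at 1.46.

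Yolk and eggshell genes followed no single direction. Of the 6 vitellogenin genes 4 were lower (median -0.92; 2 without culture 1), 2 of the 6 averaged under 1 CPM in total RNA, and none was called with the length trend removed (median -0.33; 1 without culture 3, where 5 were lower as fitted). vit-2 had 5529, 6125 and 5321 CPM in polysomal and 13618, 12703 and 14127 CPM in total libraries, without overlap and far apart (-1.25 ± 0.34, adjusted p = 0.0167). That call was lost without culture 1 (adjusted p = 0.104), without culture 2 (adjusted p = 0.0560) and with the trend removed (-0.66, adjusted p = 0.157). The other calls were vit-4 (-0.91; adjusted p = 0.848 without library 3 alone), vit-1 (-0.79; 0.0772 without culture 1, 0.600 without library 3 alone) and vit-5. vit-5 had 490.5, 508 and 448 CPM in polysomal and 1249, 1210.0 and 1339 CPM in total libraries (-1.39 ± 0.28, adjusted p = 0.00453). Of 28 eggshell and yolk uptake genes, 8 were higher and 10 lower (5 and 6 without culture 1, 7 and 8 without culture 3; median -0.09; 0.06 under upper-quartile scaling; 0.16 with the trend removed). perm-4, an eggshell permeability barrier gene, had 2236, 2164 and 3871 CPM in polysomal and 724, 726 and 723 CPM in total libraries, with all polysomal values far above the total ones (1.87 ± 0.27, adjusted p = 0.00158). chs-1, the eggshell chitin synthase, had 50.6, 50.1 and 51.2 CPM in polysomal and 163, 157 and 161 CPM in total libraries, tight in both fractions (-1.66 ± 0.15, adjusted p = 8.18e-04).

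**Figure D5:**
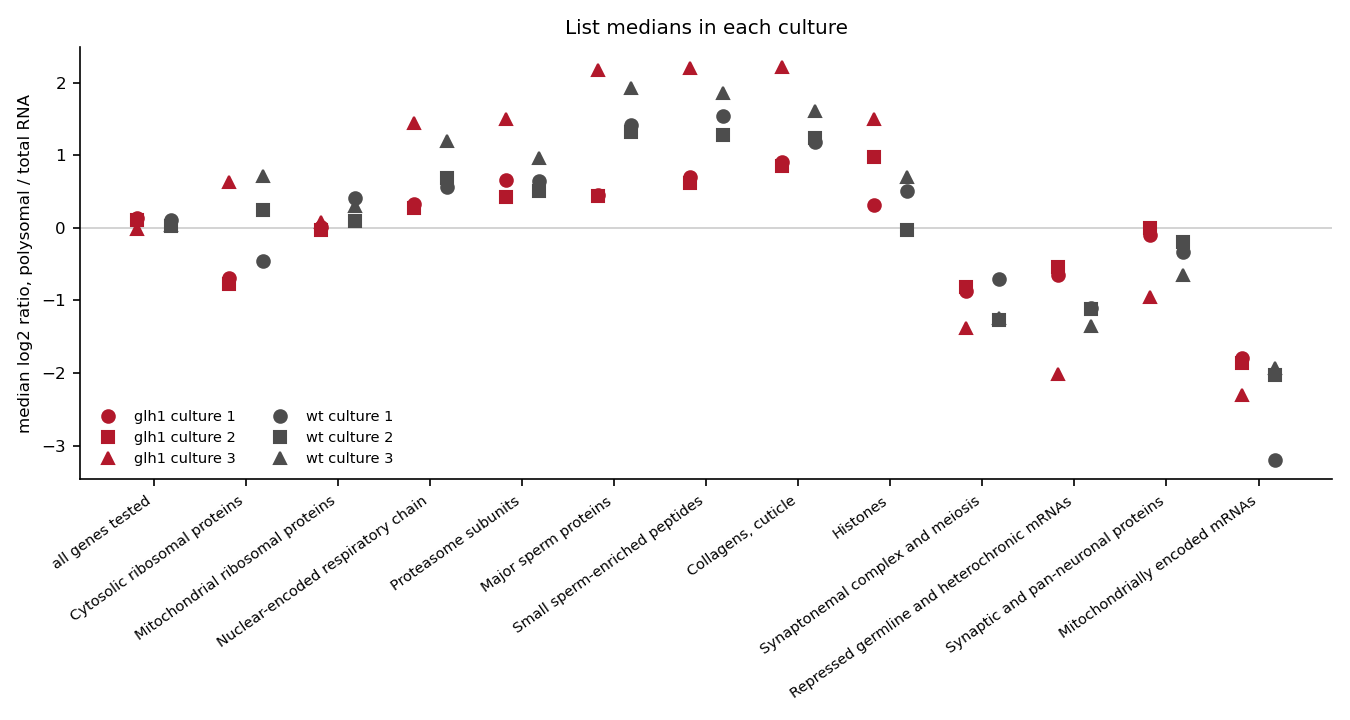
Median log2 ratio of polysomal to total RNA (y axis) of 13 gene lists in each culture, glh1 left of wt. In glh1 culture 3 lies above cultures 1 and 2 for ribosomal proteins (0.63 against -0.69 and -0.77), MSP (2.18 against 0.46 and 0.44) and collagens (2.22 against 0.91 and 0.85).

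Pseudogenes were called lower more often than all genes, whereas lincRNAs, antisense RNAs and other noncoding RNAs were not, as fitted. Of 581 tested pseudogenes (of 2117), 22 were higher and 206, or 35.5%, lower (median -0.70, -0.83 with the length trend removed, -0.58 without culture 3 with 21 and 189), and 10 and 137 without culture 1. WBGene00014294 had 30.0, 35.2 and 23.2 CPM in polysomal and 145, 161 and 147 CPM in total libraries (-2.38 ± 0.20, adjusted p = 7.64e-04). Of 61 tested lincRNAs, 2, linc-3 (1.55) and linc-68 (1.58), were higher and 13, or 21.3%, lower (median -0.20). The counts were 1 and 7 without culture 1, 2 and 6 without culture 2, 2 and 16 without culture 3 (median -0.58), and 1 and 23 with the trend removed (median -0.65). linc-68 lost its call whichever culture was left out (adjusted p = 0.0687 to 0.259), and linc-3 was at 1.01 without culture 3 and lost its call without library 3 alone (0.435). Of 77 tested other noncoding RNAs, 4 were higher and 12, or 15.6%, lower (median -0.11, 0.04 under upper-quartile scaling); it was 5 and 19 without culture 3 and 2 and 25 with the trend removed. Of 24 antisense RNAs 1 was higher and 2 lower, and the 1 tested snoRNA, K10D3.10, was higher (0.75; adjusted p = 0.0647 without culture 1). tts-1, an abundant long noncoding RNA (WBGene00006650, chromosome X, 1504131 to 1504841), had 819, 766 and 1092 CPM in polysomal and 6068, 5968 and 5458 CPM in total libraries. Its polysomal values were far below all total values (-2.72 ± 0.29, adjusted p = 9.66e-04; -3.17 with the trend removed). rpr-1, the RNA of ribonuclease P, had 0.0680, 0.180 and 0.0730 CPM in polysomal and 1.02, 1.39 and 1.60 CPM in total libraries (-3.63 ± 0.46, adjusted p = 0.00182). Libraries were selected for poly(A), so levels of RNAs without a tail are uncertain. Reads on pseudogenes can come from related genes, and no source says whether the counting used strand, so reads of overlapping genes cannot be told apart.

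Chromosomes differed in the balance of calls. Of 2213 tested protein-coding genes on the X chromosome, 683 (30.9%) were higher and 278 (12.6%) lower (median 0.29). Of 2506 on chromosome I, 24.5% were higher and 26.9% lower (median -0.01). Over all 15761 protein-coding genes, 27.5% were higher and 21.0% lower (median 0.12). With the length trend removed, X-linked genes had 712 higher and 234 lower (median 0.31). Their culture medians were 0.38 and 0.36 in cultures 1 and 2 and 0.06 in culture 3, and wt had a median of 0.25. Genes on X are known to be mostly silent in the germline; how this balance relates to the germline lists was not tested.

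The ratios of glh1 were lastly set against those of wt cultures handled in the same way. Of these, wt cultures 2 and 3 lay apart from all glh1 libraries on the second principal component, and wt culture 1 did not. In wt, 7424 genes (44.9%) were called, 3963 (24.0%) higher and 3461 (20.9%) lower (5552 and 2581 under upper-quartile scaling), but leaving out culture 1, 2 or 3 of wt gave 4656, 4493 and 3029. Called in both genotypes in the same direction were 6161 genes (37.3%), and 1 (0.00605%), the pseudogene WBGene00023399, was called in opposite directions (-0.83 in glh1 and 0.91 in wt). The Spearman correlation of the log2 ratios of glh1 and wt across genes was 0.894 (0.872 with the length trend removed). Many lists had close medians, among them collagens 1.36 in glh1 and 1.38 in wt, meiosis genes -0.99 and -1.13, small RNA factors -0.84 and -0.96, proteasome genes 0.80 and 0.71, and mitochondrially encoded mRNAs -1.98 and -2.36. Medians lay farther apart for MSP genes (0.96 in glh1, 1.56 in wt), histones (1.01 and 0.41) and the 5 tested rRNA genes (-0.37 and -2.77). They also did for cytosolic and mitochondrial ribosomal protein genes, at -0.27 and -0.05 in glh1 and 0.19 and 0.21 in wt. Ranges of single-culture medians overlapped between genotypes in these lists, except for mitochondrial ribosomal proteins (-0.03 to 0.08 in glh1, 0.09 to 0.41 in wt). For MSP genes the medians were 0.46, 0.44 and 2.18 in glh1 cultures 1 to 3 and 1.32 to 1.93 in wt. There the overlap rested on glh1 culture 3, which lay above all wt cultures, while cultures 1 and 2 lay below them. For histones they were 0.32 to 1.51 in glh1 and -0.03 to 0.70 in wt. For cytosolic ribosomal proteins they were -0.77 to 0.63 and -0.45 to 0.72. The rRNA median of glh1 culture 1 lay within the wt range (-3.78 to -1.98). Those of glh1 cultures 2 and 3 (0.75 and 0.68) lay above it. In some other lists the culture medians of the genotypes did not overlap either. Among them were nuclear pore genes (-0.34 to -0.04 in glh1, -0.59 to -0.48 in wt) and P granule genes (-0.27 to -0.06 and -0.47 to -0.29). Hedgehog-related genes (0.72 to 1.12 and 0.55 to 0.63), chemoreceptors (0.12 to 0.48 and 0.02 to 0.09) and muscle genes (0.12 to 0.28 and 0.31 to 0.56) were others.

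The test of the difference between genotypes called no gene. The contrast of the glh1 ratio minus the wt ratio had 0 of 16526 genes under an adjusted p of 0.05 by edgeR, 538 (3.26%) under an unadjusted p of 0.05, and 4 calls by DESeq2, with 0 also when the length trend was removed. The 4 genes of the DESeq2 calls, named after their values were seen, were WBGene00001493 and WBGene00002015, with a higher ratio in libraries labelled glh1, and WBGene00007613 and WBGene00019586, with a lower one. For glh-1 itself the difference was 0.89 ± 0.33 (SE; adjusted p = 0.999). This result turned on culture 3 of glh1: without it 214 genes (1.27%) were called, 130 (0.773%) with a higher ratio in glh1 and 84 (0.500%) with a lower one. With the trend also removed 44 genes (0.262%) were called, 24 (0.143%) higher and 20 (0.119%) lower. Leaving out polysomal library 3 alone in a fit without the culture block gave 0.

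Most of the calls made without culture 3 lay outside the lists, and MSP genes had the most among them. MSP genes had 25 of 30 called lower in glh1 and none higher (median difference -1.14), and 6 lower with the trend removed. msp-40, taken as an example after its values were seen, had 56.5, 53.7 and 218 CPM in glh1 polysomal and 89.5, 99.6 and 89.2 CPM in glh1 total libraries. In wt it had 117, 168 and 198 CPM in polysomal and 69.1, 89.3 and 66.5 CPM in total libraries. Polysomal libraries 1 and 2 of glh1 lay below their total libraries, whereas library 3 and all wt polysomal libraries lay above theirs. The difference of log2 ratios was -1.86 (adjusted p = 0.00393) without culture 3 of glh1, -1.47 (adjusted p = 0.0149) with the trend also removed, and -1.19 ± 0.55 (SE; adjusted p = 0.999) with all libraries. Small sperm-enriched peptides had 8 lower and none higher of 26, and 3 lower with the trend removed. Ribosomal protein genes had 6 lower and none higher of 80, and none with the trend removed; rpl-36.A, outside the list, was lower too.

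Oocyte and germline RNA-binding protein genes had 9 called higher in glh1 and none lower without culture 3 (median difference 0.53), and 3 higher with the trend removed. Outside the lists, daf-2, the insulin receptor, was named after its values were seen; it had 32.2, 32.8 and 6.38 CPM in glh1 polysomal and 76.3, 61.7 and 83.7 CPM in glh1 total libraries. In wt, daf-2 had 23.9, 13.5 and 16.9 CPM in polysomal and 122, 96.9 and 102 CPM in total libraries. Polysomal daf-2 was thus lower than total in both genotypes, least so in cultures 1 and 2 of glh1, and the difference without culture 3 was 1.51 (adjusted p = 0.00618). pqn-20, chosen in the same way, had a difference of 1.78 (adjusted p = 0.00943). With all libraries neither was called: daf-2 was at 0.71 ± 0.65 (SE; adjusted p = 0.999) and pqn-20 at 0.94 ± 0.73 (SE; adjusted p = 0.999).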

How the data were processed

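Poly(A)-selected RNA of 12 libraries was measured by stranded sequencing with 75 cycles. The authors deposited a table of estimated counts per gene, not whole in 3.79 to 4.80% of values per library. Per the submitters' processing notes, the build was WBcel235 and the tools were DESeq2 1.24.0 in R 3.6.1, RSEM 1.3.0, the aligner STAR 2.6.1b and the trimmer Trimmomatic 0.36. The name of the table points to another counting tool, kallisto, so the counting step is not settled. A second deposited table, of regularised log2 values for 12709 genes, was used only as an alternative. No strand setting is known, and reads shared between near-identical genes may have been divided: 102 tested genes shared exactly the same counts with a second gene.

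Counts were rounded, genes filtered with filterByExpr by group, and libraries scaled by TMM. CPM are TMM-scaled, with rRNA genes kept. edgeR 4.0.16 in R 4.3.3 fitted a quasi-likelihood model over all 12 libraries with culture as a block and 1 fraction term for each genotype, and called genes under a Benjamini-Hochberg adjusted p of 0.05 over all 16526 genes. A second fit added to each library an offset, a loess curve (span 0.5) of its level on exon length, which 16 tested genes lacked. Standard errors (SE) were derived from the test, as the absolute log2 ratio divided by the square root of its F statistic. Their median was 0.263, or 0.236 with the offset. On simulated counts for the glh1 comparison over 16526 genes, 22 of 100 genes changed 2-fold and 92 of 100 changed 4-fold were recovered, with 8 false calls. Only these genes were changed in the simulation, against 7906 called in the data, so its recovery does not carry over to the real comparison. Intervals of counting error were not used. Each library held at least 34520267 counts, but this does not remove counting error in genes at low CPM, such as rpr-1 and math-3.

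The block follows the protocol, in which each culture's lysate was divided between the fractions. The correlations of the deviations of same-numbered libraries from their group means were 0.0989, -0.163 and -0.206 in glh1 and 0.756, 0.440 and 0.303 in wt. Cultures were grown separately for each replicate, per the labels' protocols. Of 46904 gene IDs, 46817 were in the Ensembl annotation of WBcel235 and 44017 carried a symbol.

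The genes named were the 12 largest changes in each direction in each fit among called, named protein-coding genes. These had at least 2-fold change, at least 1 CPM in the higher fraction, the same direction in all cultures and no overlap. To these were added up to 4 members of smallest adjusted p in each list, and glh-1 to glh-4. The members and lists were chosen with earlier results of these data known. Lists carry no test. Alternatives were other scalings, filters, tools and models, and leaving out each culture in turn. No sequence is shown.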

Additional observations from a re-analysis of the deposited data

How the results depend on the processing

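The count of 7906 genes called in glh1 was 6309 to 8512 under the filters, scalings and tools tried over all 12 libraries, except with a 2-fold minimum (648; 126 higher, 522 lower). It was 7064 without the culture block, 6765 on the glh1 libraries alone without the block and 3784 on them with it (1448 higher, 2336 lower), a fit with 3 cultures to estimate the spread. Leaving out a culture gave 5649 to 8072, or 5691 to 7859 with the length trend removed. The wt count of 7424 ranged over 3029 to 4656 when a culture was left out; the cause was not tested. The count of the genotype difference, 0, was 4 with DESeq2 and 0 to 214 when a culture was left out, and 44 with the trend removed and without culture 3 of glh1. Leaving out culture 1, 2 or 3 moved the larger of a list's 2 counts by over 1.5 times in 18, 4 and 4 of 51 lists. Without culture 1 the counts over all genes also fell, from 4363 to 2673 higher and from 3543 to 2976 lower. Of 226 named genes no called one changed sign, glh-2 and glh-4, which were not called, did, and 147 lost a call in some setting, 144 of them under the 2-fold minimum, 25 on the glh1 libraries alone with the block, and 15 without polysomal library 3 alone.

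The median of all genes moved by -0.05 with DESeq2 size factors, 0.15 with upper-quartile scaling and -0.12 with rRNA genes removed, and list medians moved with it. Of 306 list medians recomputed, 24 changed sign. With the trend removed these were tRNA synthetases (0.21), nuclear pore (0.18), P granule (0.35), eggshell (0.16), synaptic (0.08), early zygotic (-0.02) and snoRNA genes (-0.08). With upper-quartile scaling they were mitochondrial ribosomal proteins (0.10), heat shock proteins (0.00), P granule (0.09), eggshell (0.06) and other ncRNA genes (0.04). Leaving out cultures changed the sign for mitochondrial ribosomal proteins (0.00 without culture 2 or 3), elongation factors (-0.13 without culture 1, -0.11 without 2, -0.23 without 3) and heat shock proteins (0.03 without 3). It also did so for basement membrane (-0.05 without 1, -0.03 without 2), astacin (-0.05 without 2), detoxification (0.02 without 3) and rRNA genes (0.65 without 1, and 0.16 without the block). The 306 did not include DESeq2 size factors or removal of rRNA genes. Under both, in that order, basement membrane (-0.02 and -0.09) and astacin medians (-0.01 and -0.10) turned negative. With rRNA genes removed, the median of elongation factors did too (-0.05). With 3 cultures per genotype, an uncalled gene is not shown to be alike in both fractions.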
